A study of Mus musculus with 8 samples.

Results

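The regions described here are stretches of 5-hydroxymethylcytosine (5hmC) signal that lie deep inside the longest protein-coding genes of the mouse genome. Peaks of 4 libraries were merged wherever they touched or overlapped, on the autosomes only, and each merged stretch is called a union region. A union region was counted here when its midpoint fell inside a protein-coding gene spanning at least 500 kb and more than 2 kb from any gene end. Of 341091 autosomal union regions, 21714 (6.37%) met this rule. They lay in 213 of the 216 autosomal genes of that length, and 117 of them lay inside more than 1 such gene and were assigned to the longest. Among the other union regions, 102913 lay inside genes under 500 kb by the same distance rule, 19496 lay within 2 kb of a gene end and 196968 lay outside genes.

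The libraries came from genomic DNA of splenic germinal center B cells of C57BL/6 mice, from animals that were TET2 knockout (KO) or TET2 wild type (WT). Fragments carrying 5hmC had been enriched with an antibody and sequenced (hMeDIP-seq), in KO replicates 2 and 3 and WT replicates 2 and 3. Input libraries of the same 4 samples were not used here. The labels give neither the knockout allele, nor a Cre driver, nor the age of the mice, and do not say whether replicates came from separate animals. Each p-value below is thus a measure of how far these libraries spread, possibly for technical reasons alone. Peaks of 5hmC read no expression, so the labelled cell type was not checked against markers. In a bulk sample, fewer cells carrying the mark and less mark per cell cannot be told apart.

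TET2 is 1 of the enzymes that oxidise 5-methylcytosine to 5hmC, an intermediate on the way to unmethylated cytosine that also persists as a mark in gene bodies and enhancers. TET2 is recurrently mutated in lymphomas, and germinal center B cells are the activated B cells that mutate and select their antibody genes. Very long genes consist mostly of intron. Many encode neuronal adhesion molecules, receptors and channels best known from neurons, some coincide with common fragile sites, and a few, such as Foxp1, encode regulators of lymphocytes.

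The gene lengths ran from 501754 bp (Edil3, which encodes a secreted integrin-binding protein) to 2270506 bp (Ptprd, a receptor-type tyrosine phosphatase), with a median of 734553 bp. Edil3, the shortest gene inside the limit, held 44 of the regions, and Dnm3 (a dynamin), the longest gene outside it at 495872 bp, held 70 union regions. At the distance limit, 21 regions lay at most 200 bp beyond the 2 kb limit and 47.6% of them had a peak in all 4 libraries. The 15 union regions of such genes that lay at most 200 bp short of it had a peak in all 4 libraries in 66.7% of cases.

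The DNA of the regions can be shown where a very long gene has a further annotated start site of its own in its interior. RefSeq (GRCm38.p6) gave 124 such windows of 300 bases, from 250 before to 50 after a start, in 77 of these genes. Only 12 of the 124 windows (9.68%, Wilson 95% interval 5.62% to 16.2%) were touched by a union region, against 339 of 2806 windows (12.1%) inside genes under 500 kb. For comparison, 9.23% of 605103 tiles of 300 bases laid over the very long genes were touched. The intervals cover counting error only. Windows under a peak and windows without one are set side by side by their CpG dinucleotides (letters CG, which read alike on both strands), the sites at which cytosine is methylated and then hydroxymethylated. At least 1 CpG was present in 98.4% of the windows inside very long genes and in 97.2% of those inside shorter genes. Windows with at least 10 CpG were touched in 2 of 45 cases (4.44%), and windows with fewer in 12.7%. Inside shorter genes these shares were 115 of 1135 (10.1%) and 13.4%. The median was 6 CpG in touched and 7 in untouched windows of very long genes.

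Printed 5′ to 3′ on the strand of the gene, with CpG in capitals, are the window of Magi1 and that of Lsamp, which peaks covered almost wholly in every library, and that of Mecom, covered in part. A pair of Foxp1 windows without a peak in any library follows, since Foxp1 had the densest regions of all very long genes.
Magi1 (chr6:93912914-93913213, minus strand): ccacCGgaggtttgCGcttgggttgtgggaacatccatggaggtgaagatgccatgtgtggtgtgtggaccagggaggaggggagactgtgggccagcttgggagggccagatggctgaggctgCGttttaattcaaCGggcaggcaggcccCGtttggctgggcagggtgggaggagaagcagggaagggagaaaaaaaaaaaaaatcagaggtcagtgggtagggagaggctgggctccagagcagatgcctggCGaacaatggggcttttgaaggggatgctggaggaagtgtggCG
Lsamp (chr16:41532576-41532875, plus strand): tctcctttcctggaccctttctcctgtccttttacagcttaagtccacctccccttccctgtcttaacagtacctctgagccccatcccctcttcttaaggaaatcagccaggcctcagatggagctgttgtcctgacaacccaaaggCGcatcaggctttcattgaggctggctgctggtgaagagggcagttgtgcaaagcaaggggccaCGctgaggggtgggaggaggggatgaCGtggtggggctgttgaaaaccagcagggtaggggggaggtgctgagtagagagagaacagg
Mecom (chr3:30013155-30013454, minus strand): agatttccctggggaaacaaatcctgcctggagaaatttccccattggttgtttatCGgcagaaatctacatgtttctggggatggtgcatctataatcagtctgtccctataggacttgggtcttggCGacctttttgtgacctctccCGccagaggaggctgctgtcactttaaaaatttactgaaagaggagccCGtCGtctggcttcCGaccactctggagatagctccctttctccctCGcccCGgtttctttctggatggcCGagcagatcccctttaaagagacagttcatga
Foxp1, CpG-poor start (chr6:99266466-99266765, minus strand): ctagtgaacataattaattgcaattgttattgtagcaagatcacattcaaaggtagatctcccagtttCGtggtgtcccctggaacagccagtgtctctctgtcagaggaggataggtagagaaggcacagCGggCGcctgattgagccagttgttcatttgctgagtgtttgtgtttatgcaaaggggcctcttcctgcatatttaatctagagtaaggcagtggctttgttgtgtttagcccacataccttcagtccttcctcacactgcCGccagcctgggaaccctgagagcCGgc
Foxp1, CpG-rich start (chr6:99028249-99028548, minus strand): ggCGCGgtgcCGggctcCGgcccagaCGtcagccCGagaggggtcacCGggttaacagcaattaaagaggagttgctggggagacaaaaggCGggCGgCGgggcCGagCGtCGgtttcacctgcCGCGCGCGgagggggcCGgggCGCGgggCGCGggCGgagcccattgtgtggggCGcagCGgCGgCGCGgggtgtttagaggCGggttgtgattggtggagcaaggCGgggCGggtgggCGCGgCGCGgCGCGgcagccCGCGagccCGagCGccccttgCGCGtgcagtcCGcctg

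The Magi1 window (a scaffold protein of cell junctions) holds 7 CpG, and peaks lay over 300 and 268 of its bases in KO replicates 2 and 3 and over 300 and 300 in WT replicates 2 and 3. The Lsamp window (a neuronal cell adhesion protein) holds 3 CpG and was under peaks for 300 and 300 bases in the KO libraries and 285 and 263 bases in the WT libraries. In the Mecom window (a zinc finger regulator of blood stem cells), with 9 CpG, 148 and 44 bases were under KO peaks and 115 and 121 under WT peaks. The CpG-poor start of Foxp1 holds 5 CpG and the CpG-rich one 44, and neither had a base under a peak in any library. Windows with at least 44 CpG made up 4.03% of the 124. None of the 124 windows overlapped a region that the authors called higher in WT, against 18 of the 2806 windows in shorter genes. An overlap or its absence describes these 300 bases and no more.

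Each library placed a peak in about 4 in 5 of the regions in very long genes, with more variation between the WT than between the KO libraries. A peak was present in 17135 (78.9%) of the 21714 regions in KO replicate 2 and in 17324 (79.8%) in KO replicate 3, against 16104 (74.2%) in WT replicate 2 and 18242 (84.0%) in WT replicate 3. Both KO values lay between the WT values, so the groups overlapped. The mean difference between KO and WT was 0.260 percentage points, with an exact two-sided permutation p of 1. With 2 libraries against 2, the smallest p this test can give is 0.33.

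Union regions inside genes under 500 kb gave another order of the libraries. They had a peak in 76.8% and 74.6% of cases in KO replicates 2 and 3, against 75.8% and 82.4% in WT replicates 2 and 3. Here the KO mean was lower by 3.38 percentage points (exact permutation p = 0.667). The share in very long genes minus the share in shorter genes was therefore 2.09 and 5.15 percentage points in the KO libraries, against −1.62 and 1.58 points in the WT libraries. Both KO values were above both WT values. The KO mean was 3.62 ± 2.17 points and the WT mean −0.02 ± 2.27 (SD, n = 2 each), a difference of 3.64 points at an exact two-sided permutation p of 0.33, the smallest possible.

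The bases under peaks showed the same order of the libraries. Peaks in the regions of very long genes covered 8055 and 6679 kb in KO replicates 2 and 3, against 7144 and 8151 kb in WT replicates 2 and 3. As a share of all autosomal bases under peaks, this was 6.15% and 6.28% in the KO libraries, against 5.97% and 6.10% in the WT libraries. The groups did not overlap, and KO exceeded WT by 0.178 percentage points (exact permutation p = 0.33). The relative height of the peaks had the opposite order. Within each list, the median of the authors' fold enrichment in very long genes, divided by that in shorter genes, was 1.07 and 1.04 in the KO libraries, against 1.08 and 1.07 in the WT libraries. KO was lower by 0.0202 (exact permutation p = 0.33). KO replicate 2 (1.0656) and WT replicate 3 (1.0667) nearly tied, so the order rested mostly on KO replicate 3.

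The libraries also differed in how much was called at all. The lists held 280416 and 279548 peaks in KO replicates 2 and 3, against 270548 and 300954 in WT replicates 2 and 3, covering 137.0, 110.6, 124.8 and 139.3 Mb in that order. KO replicate 3 covered the fewest bases and WT replicate 2 held the fewest peaks. With equal numbers of peaks kept per list, the groups overlapped in all 3 measures. KO then differed from WT by 3.05 percentage points in the excess of presence (exact permutation p = 1), by 0.156 points in the share of bases (p = 0.67, same exact test) and by −0.00822 in the fold ratio (p = 1, same exact test). With peaks of at least 5-fold enrichment alone these were 1.24 points, 0.0581 points and −0.00589. Without KO replicate 3 they were 2.11 points, 0.108 points and −0.00697, and without WT replicate 2 they were 2.04 points, 0.110 points and −0.0143. Over Tet2 itself and its 2 kb flanks, peaks covered 3213 and 2444 bases in the KO libraries and 3191 and 2810 bases in the WT libraries, and peak bases over the gene's whole span do not test a deletion of part of it.

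**Figure D1:**
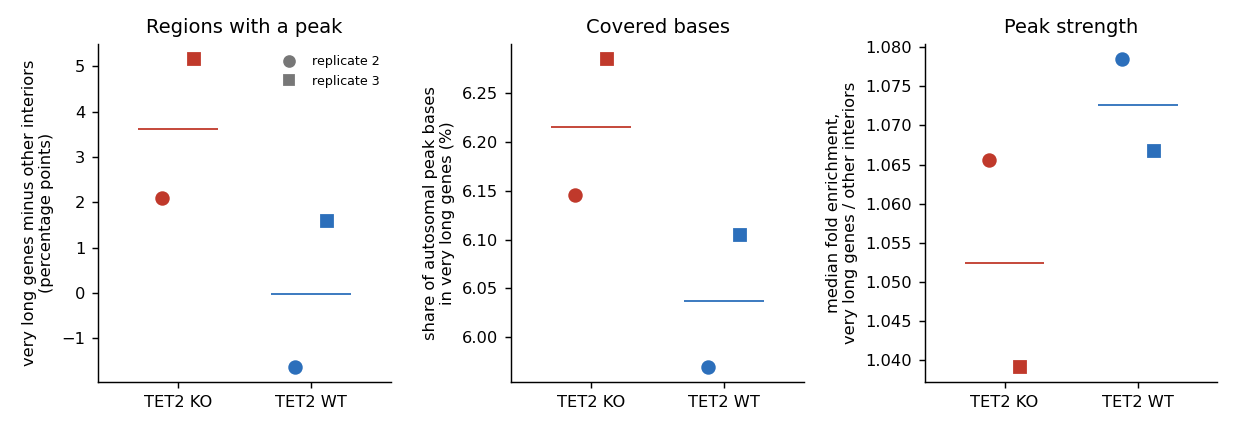
Regions inside very long genes in the 4 libraries, TET2 KO left and TET2 WT right, with circles for replicate 2, squares for replicate 3 and a line at each mean. Left, share of regions with a peak in very long genes minus that in genes under 500 kb, in percentage points; middle, share of autosomal bases under peaks that lies in the regions, in %; right, median fold enrichment in very long genes over that in shorter genes. Both KO points lie above both WT points in the left and middle panels, and below both in the right panel. There KO replicate 2 and WT replicate 3 nearly tie.

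The excess of KO presence was graded over gene length and was not a step at 500 kb. All gene-interior union regions were split by the length of their gene. The KO mean minus the WT mean of the share with a peak was −4.23 percentage points inside genes under 50 kb, −4.11 from 50 to 100 kb, −3.53 from 100 to 200 kb and −1.88 from 200 to 500 kb. It was −0.625 from 500 to 750 kb, 0.355 from 750 to 1000 kb and 1.02 in genes of 1000 kb and over. The libraries of a genotype did not move alike across these classes. KO replicate 3 had a peak in 73.2% of the regions in genes under 50 kb and in 80.8% of those in genes of 1000 kb and over. In KO replicate 2 these shares were 76.1% and 79.2%, in WT replicate 2 they were 75.8% and 73.6%, and in WT replicate 3 they were 82.0% and 84.4%. WT replicate 2 alone was lower in the longest genes than in the shortest.

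**Figure D2:**
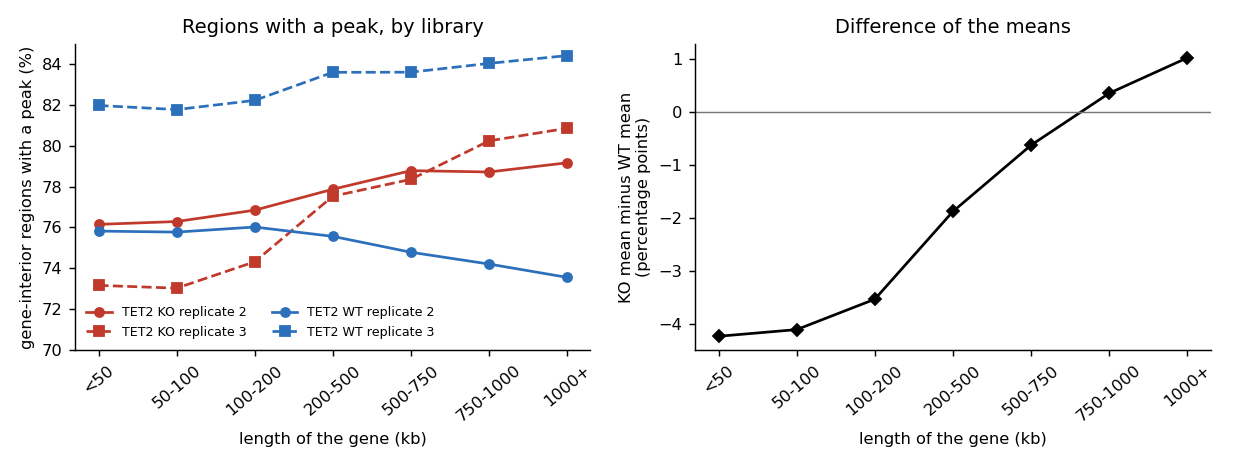
Left, share of gene-interior union regions with a peak (%, axis not from 0) in each library, by length of the gene in kb; right, KO mean minus WT mean in percentage points. The difference runs through 7 classes, −4.23 under 50 kb to 1.02 at 1000 kb and over, while WT replicate 2 falls and the other libraries end higher than they start.

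The difference was largest among weakly enriched regions. Strength was taken as the mean, over the libraries with a peak, of the percentile of the region's best fold enrichment within its own list, and all autosomal union regions were divided into 5 classes of equal size. In the weakest class, the share with a peak in very long genes minus that in shorter genes was −2.80 and 7.04 percentage points in the KO libraries, against −14.5 and −1.69 points in the WT libraries. The KO mean exceeded the WT mean there by 10.2 points, but the groups overlapped, with KO replicate 2 below WT replicate 3 and WT replicate 2 far below the rest. In the next 3 classes the excess was 3.43, 2.42 and 0.0134 points, and in the strongest it was −0.0163. Among those 3, the groups overlapped in the first and the last as well. In the strongest class nearly every region had a peak in every library, so presence could hardly differ there.

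As a set, the regions of very long genes were sparser but more often shared than those of shorter genes. Very long genes held 12.2 regions per 100 kb of gene interior (178.7 Mb), against 14.1 in genes under 500 kb. The density was 14.8 in genes under 50 kb and 11.9 in genes of 1000 kb and over. A peak in all 4 libraries was found in 13254 regions (61.0%) of very long genes, against 57.9% of those in shorter genes. Their median width was 427 bp, against 443 bp, and their median strength percentile was 40.5, against 34.4.

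Few regions separated the genotypes by presence. Peaks in both KO libraries alone were found in 313 regions (1.44%, background over all autosomal union regions 1.29%). Peaks in both WT libraries alone were found in 348 regions (1.6%, background 1.92%). The ratio of WT-only to KO-only regions was 1.11 in very long genes and 1.86 in shorter genes, where the counts were 1274 KO-only and 2376 WT-only. By gene length the ratio was 2.15 in genes under 50 kb and 0.891 in genes of 1000 kb and over. The WT-only minus KO-only difference was 35 regions. It was −413 without KO replicate 2, −174 without KO replicate 3, 963 without WT replicate 2 and −419 without WT replicate 3. Leaving out a library makes the rule unequal, since its genotype then needs a peak in 1 library and the other still in both. These values therefore cannot show how steady the difference is. Peaks in 1 KO and 1 WT library alone were found in 193 to 614 regions for each such pair of libraries.

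The authors' deposited table of regions higher in WT gave a further readout, whose caller and compared libraries are not stated. It lists 24645 WT-higher regions, of which 1783 fell in 1770 of the regions in very long genes. That is 8.15% (Wilson 95% interval 7.79% to 8.52%, counting error only), against 7.48% (7.32% to 7.65%) in shorter genes and a background of 6.71% over all autosomal union regions. For KO, the authors' deposited table of the other direction lists 50 KO-higher regions, and 0 of them fell in very long genes (background 0.00616%). A count of 0 among 21714 regions is read against that background and shows no difference by itself. The WT-higher share was 7.91%, 8.45% and 8.20% in the 3 length classes from 500 kb up. In the shorter classes it was 6.66% under 50 kb, 7.75% from 50 to 100 kb, 7.98% from 100 to 200 kb and 7.60% from 200 to 500 kb, so the classes from 50 kb up differed little. Per Mb of gene interior, very long genes held 9.90 regions with a WT-higher call, against 10.6 in shorter genes.

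Regions holding a WT-higher call mostly had a peak in KO as well. Of the 1770, 1598 (90.3%) had a peak in all 4 libraries, against 58.4% of the regions without such a call. A peak was present in 95.4% and 90.9% of them in KO replicates 2 and 3, against 98.3% and 97.9% in WT replicates 2 and 3. Only 27 of them were WT-only, and none was KO-only. Their median width was 540 bp, against 419 bp for the rest.

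WT-higher calls concentrated in the strongest regions, and more steeply so in very long genes than in shorter ones. From the weakest to the strongest class of peak strength, 2.11%, 1.85%, 3.25%, 8.84% and 23.2% of the regions in very long genes held a WT-higher region. In genes under 500 kb these shares were 5.22%, 4.70%, 4.97%, 7.17% and 16.5%. The Wilson intervals of both sets did not overlap in any of the 5 classes. In the strongest class they were 22.0% to 24.4% in very long genes and 16.0% to 17.1% in shorter genes. By number of libraries with a peak, 1 to 4, the shares were 1.24%, 2.06%, 3.16% and 12.1% in very long genes, against 3.58%, 4.78%, 5.95% and 9.58% in shorter genes. The 2 sets thus stood in opposite order in regions of a single library and in regions of all 4. Because the authors' calls have no replicate values, these differences have no test over libraries. The libraries behind those calls are not stated, so strength and calls may rest on the same reads.

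**Figure D3:**
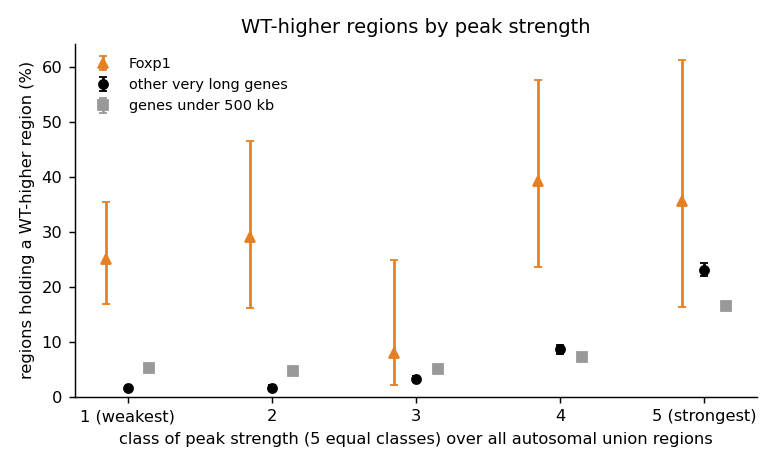
Share of regions that hold a WT-higher call in the authors' deposited table (%), by class of peak strength, for Foxp1 (triangles), the other very long genes (circles) and genes under 500 kb (squares); bars are Wilson 95% intervals for counting error only. The other very long genes run to 23.1% in the strongest class, against 16.5% in shorter genes, while Foxp1 already stands at 25% in the weakest class.

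Among single genes, Foxp1 stood apart in density, strength and WT-higher calls. Foxp1 encodes a forkhead transcription factor needed for B cell development (chr6:98925342-99522746, GRCm38). It held 178 regions, or 29.8 per 100 kb of its full span, where the next gene, Csmd2, had 20.1 and the median gene 11.7. The regions had a peak in 125 and 104 cases in KO replicates 2 and 3, against 158 and 130 in WT replicates 2 and 3. Both KO libraries were lower than both WT libraries in this count, but KO replicate 2 (125) only slightly below WT replicate 3 (130). WT replicate 2 was by far the highest, though its list held the fewest peaks. In bases under peaks the values were 72249 and 51824 in the KO libraries, against 86780 and 71377 in the WT libraries. These overlapped, since KO replicate 2 lay just above WT replicate 3.

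A WT-higher region lay in 47 of the 178 Foxp1 regions (26.4%, Wilson 95% interval 20.5% to 33.3%), the highest share of the 213 genes. The regions were nonetheless weak. Their median strength percentile of 21.9 was the lowest of all 213 genes, against 40.5 over all regions in very long genes, and their median width of 507 bp was the largest. Even in the weakest class of strength, 20 of 80 Foxp1 regions (25%) held a WT-higher region, where the other very long genes had 1.56%. From the start to the end of Foxp1, 4 equal stretches of the gene held WT-higher calls in 6 of 29, 12 of 52, 10 of 48 and 19 of 49 regions. The regions of Foxp1 with a call covered a mean of 578 and 446 bases in the KO libraries, against 752 and 589 bases in the WT libraries. Those without a call covered 344 and 236 bases in the KO libraries, against 393 and 333 in the WT libraries. Of the regions with a call, 72.3% and 66.0% had a peak in KO replicates 2 and 3. In WT replicates 2 and 3 these shares were 97.9% and 74.5%, so WT replicate 2 stood far above WT replicate 3. Without Foxp1, the WT-higher share over all very long genes was 8.0%.

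Unc5d, a receptor for netrin guidance cues (chr8:28646717-29219671), came next, with WT-higher calls in 12 of 60 regions (20%, 11.8% to 31.8%). Unlike Foxp1, its density was 10.5 per 100 kb and 42 of its regions had a peak in all 4 libraries. Its regions with a call had a median strength percentile of 78.0, and those without one 37.8. Bases under peaks over the whole gene, scaled to equal library totals, ran the other way from the calls. They were 20743 and 21817 in the KO libraries, against 20048 and 19555 in the WT libraries. Sntg1, a syntrophin of the neuronal membrane skeleton (chr1:8359739-9301657), lay at the other extreme with a call in 0 of 103 regions, which allows a share of up to 2.91% by the limit of 3 counts and has a Wilson upper limit of 3.6%. Its regions had a peak in 79 and 80 cases in KO replicates 2 and 3, against 75 and 89 in WT replicates 2 and 3. The median strength percentile of Sntg1 was 42.3, close to that of all very long genes.

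**Figure D4:**
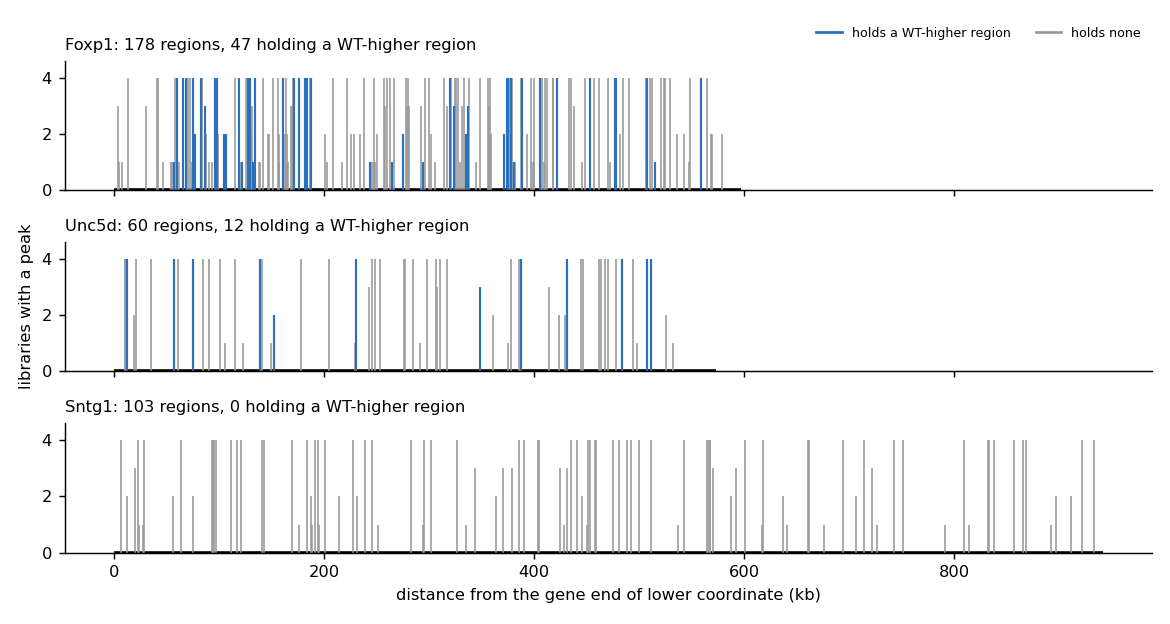
Union regions along Foxp1, Unc5d and Sntg1, by distance in kb from the gene end of lower coordinate; the height of each line is the number of libraries with a peak and blue lines hold a WT-higher call in the authors' deposited table. Foxp1 has 47 blue lines among 178, Unc5d 12 among 60 and Sntg1 none among 103.

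The share holding a WT-higher region had a median of 7.59% over the 213 genes (interquartile range 5.48% to 10.3%), and 207 genes held at least 1. Above the share over all very long genes, with its whole Wilson interval, lay that of 10 genes. After Foxp1 and Unc5d these were Plcb1 at 15.7% (a phospholipase C of G protein signalling), Car10 at 15% (a carbonic anhydrase-related protein), Pde4b at 14.5% (a phosphodiesterase that degrades cyclic AMP in leukocytes), Cadm2 at 13.7% (an adhesion molecule), Lpp and Lrrtm4 at 13.5% each, Cdh13 at 13.3% and Wwox at 13.0%. Lpp encodes a LIM-domain protein of focal adhesions, Lrrtm4 a synaptic organiser, Cdh13 a cadherin and Wwox an oxidoreductase at a fragile site. High shares with wider intervals were found in Rims1 at 13.8% (a protein of transmitter release), St6galnac3 at 13.6% (a sialyltransferase) and Adarb2 at 13.5% (a relative of RNA-editing enzymes). Below the overall share lay the intervals of 10 genes, and 6 of these held no call. Besides Sntg1 these were Rgs6 with 71 regions (a regulator of G protein signalling), Rarb with 70 (a retinoic acid receptor), Skint5 with 60, Ptprg with 54 (a receptor-type tyrosine phosphatase) and Gmds with 53 (an enzyme of GDP-fucose synthesis). The other 4 were Mast4 and Tenm4 at 2.25% each, Sugct at 2.73% and Sdk1 at 3.6%. Intervals were not adjusted for the number of genes.

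The number of regions followed gene length, and density did not. The genes held 40 to 258 regions each, with a median of 89. The most were found in Rbfox1 with 258 (a splicing factor of neurons and muscle), Ptprd with 255, Dlg2 with 252 (a postsynaptic scaffold), Lsamp with 246 and Cntnap2 with 231 (a neurexin-related adhesion protein). Macrod2 with 227, Lrp1b with 224, Dpp10 with 222, Pcdh15 with 208 and Cdh13 with 203 came next. Across the 213 genes, Spearman's rho of length with number was 0.861 and that with density 0.000561. Genes share libraries and are not replicates. Density of single genes, taken over the full gene span and not over the gene interior, had an interquartile range of 10.6 to 13.1 per 100 kb. After Foxp1 and Csmd2 the densest were Wwox at 19.4, Sox5 at 17.6 (an HMG-box transcription factor) and Zfhx3 at 17.4 (a homeobox transcription factor). The sparsest were Gm37013 at 6.07, Magi1 at 6.57, Lama2 at 7.71 (a laminin chain), Ptprg at 7.84 and Nbea at 7.88 (a protein of membrane traffic).

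**Figure D5:**
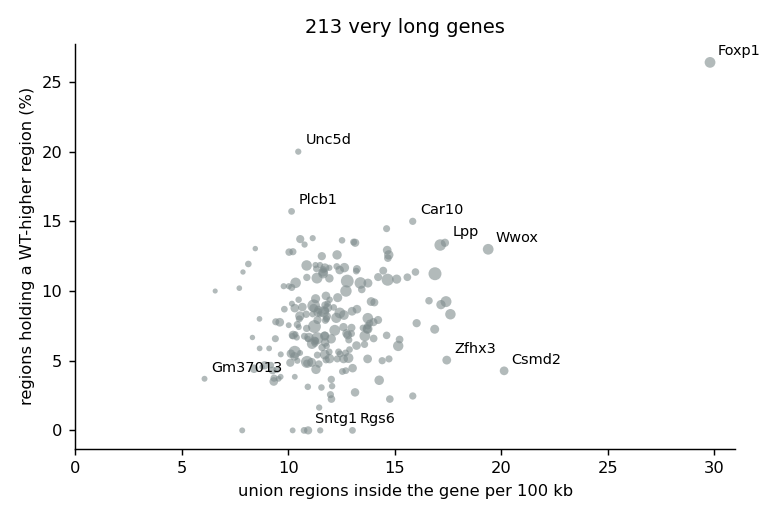
Each point is 1 of 213 very long genes, with union regions inside the gene per 100 kb on the horizontal axis and the share of them holding a WT-higher region (%) on the vertical axis; point area follows the number of regions. Foxp1 lies alone at 29.8 per 100 kb and 26.4%, and Sntg1 and Rgs6 lie at 0%.

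Lists of very long genes by function differed little in the share with a WT-higher region, apart from the list that holds Foxp1. In 30 genes of synaptic adhesion and scaffold, 8.08% of 4172 regions held one. The share was 8.06% of 2183 regions in 23 genes of neuronal receptors, channels and release, and 7.99% of 2777 regions in 20 common fragile site genes. In 8 cadherins and catenins it was 9.57% of 1191 regions, and in 8 broadly used long genes 9.51% of 873. The 12 long genes with known roles in blood cells had the highest share, 12% of 1294 regions (Wilson 95% interval 10.3% to 13.9%). Without Foxp1 the other 11 had 9.68% (8.08% to 11.6%). The 125 very long genes of no list had 7.73% of 11194 regions. Some genes are in more than 1 list.

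Over whole genes, bases under peaks were higher in KO for most very long genes once libraries were scaled to equal totals, and no gene passed the test. For the fit, bases under peaks were summed over each protein-coding gene with 2 kb on either side, scaled, and tested as log2(bases + 200) in limma. Of 14014 genes with a mean of at least 500 bases, 0 were called at an adjusted p under 0.05 in either direction (background 0%), and 567 had an unadjusted p under 0.05. Among the 216 very long genes 0 were called, and 13 had an unadjusted p under 0.05, all higher in KO (background 1.46% higher and 2.58% lower). The estimate was above 0 in 185 and below 0 in 31, with a median log2 difference of 0.07, against 0.01 over all 14014 genes. Overlapping genes share peaks, and the nested spans Gm37013, Gm38666 and Gm38667 were each counted, all above 0. Both KO libraries lay above both WT libraries in 96 very long genes (44.4%, background 18%). Both lay below in 7 (3.24%, background 13.7%).

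That direction depended on scaling. Without scaling, the median over all genes moved to a log2 difference of −0.10 and 31 very long genes had an estimate above 0 against 185 below. Relative to the median of all genes, the very long genes stood at 0.06 with scaling and 0.05 without. Leaving out 1 library at a time, with scaling, 158 to 191 of the 216 had an estimate above 0. With peaks of at least 5-fold enrichment alone, their median relative to all genes was −0.00. With scaling, the share of genes with an estimate above 0 was 51.9% in genes under 50 kb, 66.6% from 200 to 500 kb, 77.8% from 500 to 750 kb, 88.2% from 750 to 1000 kb and 100% of 59 genes of 1000 kb and over. These length classes also count genes of the X chromosome.

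The 5 genes with the smallest p higher in KO were Gpc6 (a glypican), Adgrv1 (an adhesion receptor of hair cells), Ptprk (a receptor-type tyrosine phosphatase), Lrrtm4 and Dcc (a netrin receptor). Scaled bases under peaks in Gpc6 were 46338 and 49761 in the KO libraries, against 40952 and 42041 in the WT libraries, which did not overlap. The log2 difference was 0.21 ± 0.06 (SE), at a limma adjusted p of 0.990. In Adgrv1 they were 24009 and 25283 in the KO libraries, against 19614 and 21486 in the WT libraries, a log2 difference of 0.26 ± 0.08. For Ptprk, Lrrtm4 and Dcc the log2 differences were 0.20, 0.18 and 0.19, with both KO values above both WT values in each. Lrrtm4 also had a high share of regions with a WT-higher call (13.5%), so calls and whole-gene bases differed in direction there.

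In the other direction the smallest p were those of Zbtb20 (a zinc finger repressor used by B and plasma cells), Lhfpl3, Foxp1, Elmo1 (a partner of Rac activation in migrating cells) and Pde4b. Zbtb20 had 28433 and 27326 scaled bases in the KO libraries, against 31434 and 29470 in the WT libraries, and a log2 difference of −0.13 ± 0.06 (limma adjusted p = 0.990). Foxp1 had 68006 and 61329 in the KO libraries, against 87710 and 66174 in the WT libraries. KO replicate 2 lay above WT replicate 3, so the groups overlapped. The log2 difference of Foxp1 was −0.24 ± 0.14. It was −0.04 without WT replicate 2 and −0.44 without WT replicate 3, so WT replicate 2 carried most of it. The log2 differences of Lhfpl3, Elmo1 and Pde4b were −0.16, −0.13 and −0.07. Zbtb20, Lhfpl3, Elmo1 and Pde4b are among the 7 very long genes with both KO values below both WT values. The other 3 were Dock2, an activator of Rac in lymphocytes, Cacna1c, a calcium channel, and Syne1, a nuclear envelope protein, named after their values were seen.

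By list, and with 0 genes called in any, the estimates lay above 0 in 29 of 30 genes of synaptic adhesion and scaffold, 18 of 23 of neuronal receptors, channels and release, 8 of 8 cadherins and catenins and 16 of 20 fragile site genes. Their median log2 differences were 0.09, 0.08, 0.10 and 0.07. Long genes with known roles in blood cells had 6 of 12 above 0 and a median of −0.00, and broadly used long genes had 2 of 8 above 0 and a median of −0.01. Over all very long genes 185 of 216 lay above 0, with a median of 0.07. The shares in the lists of neuronal receptors, channels and release and of fragile site genes were below that. Over all 14014 genes 7475 lay above 0.

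The same fit on single regions called 0 of the 18267 regions in very long genes that passed the filter of a mean of at least 100 bases under peaks. Over all 287370 regions tested it called 1, lower in KO (0.000348% lower and 0% higher). At an unadjusted p under 0.05, 183 of the 18267 regions of very long genes were higher in KO and 105 lower. Both are smaller shares than those over all regions tested (background 1.16% and 0.927%). The smallest limma adjusted p among them was 0.244. On simulated data this fit missed most of the changed regions at every size tried, so a count of 0 says little about single regions.

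Along the genes, the density of regions was slightly higher near the start. By distance from the start it was 13.8 per 100 kb at 0 to 10 kb, 13.2 at 10 to 50 kb, 12.5 at 50 to 100 kb, 12.2 at 100 to 250 kb and 11.8 at 250 to 500 kb. In 4 equal stretches of the 169 genes with a known strand, taken from the start to the end, there were 12.4, 11.9, 11.9 and 12.2 regions per 100 kb, and 8.32%, 7.78%, 8.97% and 8.36% of them held a WT-higher region. The median gap to the next region of the same gene was 5126 bp. The region after one with a WT-higher call held a call itself in 10.4% of cases, against 7.95% after a region without one. Without Foxp1 these were 9.91% and 7.84%. In shorter genes, where the median gap was 3387 bp, they were 13.8% and 7.20%.

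Ranked by score in the authors' deposited table for WT, the top 10 regions lay in Grm7 (3 regions), Hdac9, Rad51b, Dlg2, Opcml, Kalrn, Robo2 and Rims1. What scale that score has is not stated. The highest, 18.4 in the authors' deposited table, belonged to a region of Grm7, a metabotropic glutamate receptor, at chr6:111377007-111377520. Peaks covered 437 and 262 of its 514 bases in KO replicates 2 and 3, against 438 and 514 in WT replicates 2 and 3, so KO replicate 2 and WT replicate 2 hardly differed. A second Grm7 region (chr6:111038827-111039272, score 11.1 in the authors' deposited table) had 446 and 0 bases under peaks in the KO libraries, against 397 and 428 in the WT libraries. In Hdac9, a histone deacetylase, the region chr12:34778671-34779088 had 343 and 0 bases in the KO libraries, against 415 and 0 in the WT libraries, and a score of 10.3 in the authors' deposited table. The region of Rad51b, a recombination repair gene, at chr12:79633851-79634946 had 536 and 480 bases under peaks in the KO libraries, against 1038 and 910 in the WT libraries. Both KO values lay well below both WT values there, with a score of 10.2 in the authors' deposited table.

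The widest regions were largely alike in the 4 libraries. That of Fhit, a fragile site gene, at chr14:11046212-11050113 spanned 3902 bp, with 3901 and 3809 bases under peaks in the KO libraries and 3880 and 3864 in the WT libraries. Others were found in Robo2 (2772 bp, an axon guidance receptor), Foxp1 (2176 bp) and Dock2 (2069 bp). The Foxp1 region, chr6:99006940-99009115, was the one of these with WT-higher calls, 2 of them. It had 1583 and 1266 bases under peaks in the KO libraries, against 1966 and 1985 in the WT libraries, which did not overlap. The regions ranked highest in fold enrichment over the lists lay in Ctnna3, Ryr2, Sgcz, Ctnna2 and Rbfox1. Those of Ctnna3 and Ctnna2 (alpha-catenins) and Sgcz (a sarcoglycan) held no WT-higher region, and those of Ryr2 (a calcium release channel) and Rbfox1 held 1 each.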

How the data were processed

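Genomic DNA enriched for 5hmC was sequenced from 2 TET2 KO and 2 TET2 WT libraries. The submitters' processing notes name MACS2 2.1.0.20151222, BWA 0.7.12-r1039 and the build GRCm38.p3 without settings. The authors deposited 1 peak list per library, with a fold enrichment (a ratio), a −log10 p and a −log10 q for each peak, so peaks had been called per library. They also deposited lists of KO-higher and WT-higher regions, named so per the file headers, with a score of unstated scale. Read depth is unknown, so only the called peaks were compared. Fold enrichment was compared within a list alone.

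Genes, strands and start windows came from the RefSeq table of GRCm38.p6. The share with a peak, covered bases and fold ratios were compared by exact permutation of libraries. Covered bases per gene and per region were fitted over the whole table with limma 3.58.1 in R 4.3.3 (trend, robust), as log2(bases + 200) scaled to equal totals, with Benjamini-Hochberg adjustment over all features and means of at least 500 bases (genes) or 100 bases (regions). Fits were tested on simulated data. There the gene fit recovered 53.5% of genes changed 2-fold, 95.0% at 4-fold and 100% at 8-fold. Smaller changes, such as all those given here for single very long genes, were not simulated. At the same sizes the region fit recovered 0%, 35.0% and 33.5% of changed regions. It made about as many false as true calls, or more. Wilson intervals cover counting error. Of 216 genes, 169 had a strand.

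The regions, gene lists and tests were chosen with earlier results of these data known. Genes named are the 10 with most regions, the 10 highest and 5 lowest in WT-higher share (at least 20 regions), the 5 densest and 5 sparsest, the 5 smallest p in each direction, and, chosen after their values were seen, those whose interval left out the overall share and those whose start windows are printed. Regions named are the 10 highest in score, the 5 widest and the 5 highest in fold rank. One item that the rule names is not reported here. The text gives coordinates for those it describes.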

Additional observations from a re-analysis of the deposited data

How the results depend on the processing

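The alternatives left out each library in turn, kept peaks of at least 5-fold enrichment or equal numbers of peaks per list, asked that peaks cover at least 50% of a region, set the gene length at 400 or 750 kb and the distance to gene ends at 10 kb, and changed pseudocount, scaling, filter and score. Leaving out Foxp1 and using the ends of genes of every biotype (21162 regions) were chosen after seeing the data. The share with a peak in very long minus shorter genes stayed higher in KO in all 11 alternatives (2.04 to 5.24 points without 1 library, 1.24 with 5-fold peaks), and so did the share of bases in all 10 (0.108 to 0.247 points without 1 library, 0.0581 with 5-fold peaks). The fold ratio stayed lower in KO in all 10 (−0.0333 to −0.00697 without 1 library, −0.00589 with 5-fold peaks). Leaving out 1 library could not turn the sign of any of these 3 measures, because both KO values lay on the same side of both WT values. Those alternatives thus show the size of the difference alone. With equal peak numbers KO and WT libraries overlapped in all 3. The KO minus WT share with a peak in very long genes alone, 0.260 points, ran from −4.66 to 5.18 points without 1 library. It was −15.7 points with 5-fold peaks, −0.163 with 50% coverage and −0.0523 at 400 kb. WT-only minus KO-only regions, 35, ran from −419 to 963 without 1 library, where KO and WT no longer meet the same rule. This difference was 440 with 5-fold peaks, −66 with equal peak numbers, 61 at 400 kb and −1 at 750 kb. The WT-higher share became 13.7% with 5-fold peaks (11.1% in shorter genes). With scores of 5 and over alone it became 3.57% (3.28% in shorter genes). Density became 6.54 per 100 kb with 5-fold peaks and 12.4 at 400 kb. The gene fit called 0 very long genes in all 11 alternatives. The region fit called 0 regions of very long genes without any 1 library, but 3 with 5-fold peaks, 1 with a pseudocount of 1000, 56 without scaling and 144 without a filter. Over all regions, 5-fold peaks gave 23 higher and 69 lower calls in KO of 160309, and the pseudocount of 1000 gave 6 lower of 287370. Without scaling there were 273 higher and 1272 lower of 287370, and without a filter 1264 higher and 1721 lower of 341091. In that order, 10487, 18267, 18267 and 21714 regions of very long genes were tested. The cause of these changes was not tested. Samples of the same replicate number deviated together with a correlation of 0.0918 over genes and 0.0523 over regions, so the numbers were not taken to pair samples. With the replicate block, 0 very long genes and 0 regions were called. An unadjusted limma p under 0.05 was then found in 40 of the 216 very long genes, 38 higher and 2 lower in KO. Over all 14014 genes, 817 had such a p with the block, against 567 without it. Peaks called at unknown read depth and 2 libraries a group limit every comparison.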
